A study of Neogale vison with 6 samples.

Results

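The genes described here are the TFEB family of transcription factors and regulators of lysosomal gene expression, 8 genes in all: TFEB, TFE3, MITF, ZKSCAN3, MCOLN1, PPARGC1A, FNIP1 and FNIP2. They were chosen by symbol from the 24526 genes of the count table, of which 7 were found. ZKSCAN3 had no row under that symbol and is not analysed here. The study subjected Mv1Lu, an epithelial cell line from mink lung, to cholesterol depletion (CD) and compared it with untreated cells (control) by RNA-seq, with 3 libraries per group. For CD the cells were kept for 16 h in medium containing 10% lipoprotein-deficient serum (LPDS), with lovastatin and mevalonate at 50 μM each. Lovastatin is a statin, which blocks HMG-CoA reductase, and mevalonate is the product of that enzyme. The control cells were untreated. For another assay, the study's methods give fetal calf serum at 10% for untreated cells in place of LPDS, and the effects of the serum and of each compound cannot be told apart in this comparison. The cells are a single line, and the sources do not state whether the libraries of a group came from separate cultures, so that the p-values measure the spread between these libraries.

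TFEB, TFE3 and MITF are basic helix-loop-helix leucine zipper proteins that bind E-box sequences of the CLEAR element in lysosomal and autophagy genes. In fed cells, mTOR complex 1 on the lysosomal surface phosphorylates them and keeps them in the cytoplasm, and dephosphorylation by calcineurin lets them enter the nucleus. FNIP1 and FNIP2 are the partners of folliculin (FLCN), with which they control the Rag GTPases that bring TFEB and TFE3 to mTOR complex 1. MCOLN1 is the lysosomal channel whose calcium release activates calcineurin, PPARGC1A is a coactivator of mitochondrial genes, and ZKSCAN3 is known as a repressor of autophagy genes. RNA counts measure the transcripts of these genes and not the location or phosphorylation of the proteins.

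Between 13473820 and 18633764 reads per library were counted on genes. Reads assigned to no gene made up 29.3% to 47.2% in the control and 31.1% to 41.4% in the CD libraries. Levels are given as CPM, the reads of a gene relative to the size of its library after TMM normalization, on which a gene can be compared between libraries but not with a gene of another length. Changes are given as the log2 fold change of CD over control (log2FC), and a gene was called higher or lower at a false discovery rate (FDR) under 0.05. Of the epithelial markers found, KRT19 was abundant (a mean of 936 CPM in control and 458 CPM in CD), whereas EPCAM and CDH1 were near 0 in both groups (means of 0.162 and 0.181 CPM in control and 0.0480 and 0.390 CPM in CD). KRT19 was called lower (log2FC -1.03, FDR 2.74e-04), and CLDN4, a tight junction protein and the remaining epithelial marker found, was called higher, from a mean of 0.603 CPM in control to 7.03 CPM in CD (log2FC 3.55, FDR 9.61e-06, edgeR). The summed level of the 4 leukocyte markers rose from 5.57–6.67 CPM in the control to 21.1–26.0 CPM in the CD libraries, through CD68 and CSF1R, while PTPRC, which defines leukocytes, had a mean of 0 CPM in control and 0.0240 CPM in CD. CD68 encodes a lysosomal membrane glycoprotein. Of the endothelial markers, VWF was also higher in CD, and the sum of all 4 was at most 1.96 CPM. The melanocyte markers TYRP1, DCT and MLANA, known targets of MITF, had no reads in any library, and the sum of all 5 was 6.58–7.77 CPM in control and 5.98–7.91 CPM in CD. Nearly all of this sum came from PMEL, with a mean of 7.19 CPM in control and 7.01 CPM in CD. PMEL was not called (log2FC -0.04, FDR 0.88, edgeR). Of the 5 mesenchymal markers, THY1 had no reads in any library, and the sum of the list was lower in CD (158–201 CPM) than in control (227–276 CPM). COL1A2 had the highest level of the list, with a mean of 212 CPM in control and 164 CPM in CD. COL1A1, COL1A2 and PDGFRB were called lower (log2FC -0.93, -0.37 and -1.08, FDR 9.45e-04, 0.0403 and 0.00163, edgeR). PDGFRA was not called (log2FC -0.04, FDR 0.92, edgeR). In bulk samples, a change in the number of cells of a type and a change in RNA per cell cannot be told apart, and the part of these markers in the results was not tested.

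CD raised TFEB, and it was the sole gene of the set whose change passed the test. TFEB had 154, 119 and 147 reads in control replicates 1, 2 and 3 and 225, 252 and 239 reads in CD replicates 1, 2 and 3, corresponding to 11.0, 8.60 and 8.10 CPM against 13.8, 15.5 and 17.2 CPM. The groups did not overlap, with CD above. TFEB rose 1.68-fold, from 9.24 ± 1.57 CPM to 15.5 ± 1.69 CPM (mean ± SD, n = 3), with a log2FC of 0.75 (standard error 0.18, 95% interval 0.34 to 1.16) and, by the edgeR quasi-likelihood fit, an FDR of 0.00764. The call held under all 14 alternative settings, and over the 6 tests that omitted a library the log2FC stayed between 0.63 and 0.89, with an FDR of at most 0.0469 (edgeR).

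TFE3, the paralog of TFEB, was counted with 2377, 2155 and 2982 reads in the control libraries and 3038, 3555 and 2681 reads in the CD libraries. These counts corresponded to 170, 156 and 164 CPM in control and to 187, 218 and 193 CPM in CD. The groups did not overlap, but they lay close to each other, with a log2FC of 0.29 (standard error 0.11, 95% interval 0.04 to 0.53) and an FDR of 0.0542 in edgeR, just above the threshold of 0.05. TFE3 was called in 4 of 14 alternative settings, namely upper quartile scaling (FDR 0.0268), scaling by total counts (FDR 0.0285) and the tests without CD replicate 1 (log2FC 0.34, FDR 0.0232) or CD replicate 3 (0.27, FDR 0.0282), all in edgeR. Its FDR reached 0.27 without CD replicate 2, where the log2FC was 0.19. The 95% Clopper-Pearson interval of CD replicate 2 (211 to 225 CPM) lay above those of CD replicates 1 (180 to 193 CPM) and 3 (186 to 201 CPM), which overlapped each other. Among the controls, the interval of replicate 3 (158 to 170 CPM) overlapped those of replicates 1 (164 to 177 CPM) and 2 (149 to 162 CPM). Intervals of this kind cover counting error only.

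MITF, the factor named for its role in melanocytes, was low in Mv1Lu cells. It had 59, 78 and 89 reads (4.23, 5.64 and 4.90 CPM) in the control libraries and 163, 120 and 60 reads (10.0, 7.36 and 4.32 CPM) in the CD libraries. CD replicates 1 and 2 were above all control libraries, and CD replicate 3 was within their range. The log2FC was 0.56 with a standard error of 0.29 and a 95% interval from -0.09 to 1.21, and the FDR was 0.14 in edgeR. The value depended on single CD libraries, with a log2FC of 0.27 without CD replicate 1 (FDR 0.42) and of 0.78 without CD replicate 3, where the gene was called (FDR 0.00103, edgeR). The transcripts of MITF that start at different promoters are counted as 1 gene in the table. TFEC, the remaining paralog, had 0 reads in each of the 6 libraries, which allows a level of at most 0.165 to 0.217 CPM per library (3 counts).

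**Figure D1:**
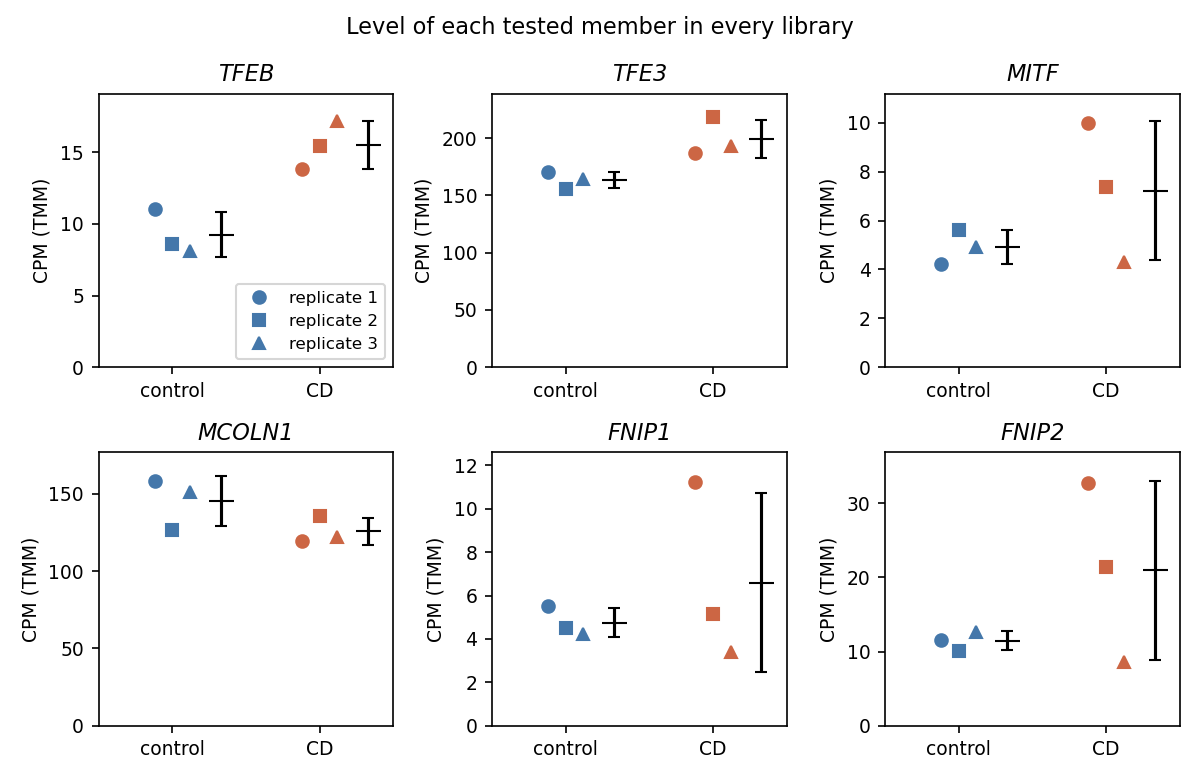
Level of the 6 tested genes in CPM after TMM normalization (y axis, linear, starting at 0), in 3 control (blue) and 3 CD (orange) libraries. Symbols mark the replicate number, and the black mark with bars gives the mean ± SD. The CD libraries lie above the control libraries for TFEB and TFE3, whereas MITF, FNIP1 and FNIP2 spread widely in CD, with replicate 1 highest and replicate 3 lowest.

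Among the 3 factors, the ratio of reads was compared within each library, which does not depend on how libraries are scaled. TFE3 had 15.4, 18.0 and 20.2 reads per read of TFEB in the control libraries and 13.5, 14.1 and 11.2 in the CD libraries, so that the ratio was lower in every CD library than in every control library. The mean log2 ratio fell by 0.47, from 4.15 ± 0.20 to 3.68 ± 0.18 (mean ± SD, n = 3; two-sided exact permutation p = 0.1, the lowest value possible for 3 against 3, and 0.4 after adjustment over 4 ratios). TFEB accounted for 5.19 ± 0.698% of the reads of the 3 factors in control and 7.00 ± 0.885% in CD cells, and TFE3 for 92.0 ± 0.563% and 89.7 ± 0.950%. These shares are not corrected for transcript length and were not tested. They describe the reads of these libraries and not how abundant each factor was. The ratio of MITF to TFEB lay between 0.385 and 0.657 in control and between 0.253 and 0.725 in CD, and the ratio of MITF to TFE3 between 0.0250 and 0.0364 and between 0.0226 and 0.0538 (exact permutation p = 0.7 for each). For both ratios the CD libraries ranged below and above the control libraries, and the direction of the mean difference changed with 1 CD library left out, to 0.14 for MITF to TFEB without CD replicate 3 and to -0.12 for MITF to TFE3 without CD replicate 1, on the log2 scale.

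**Figure D2:**
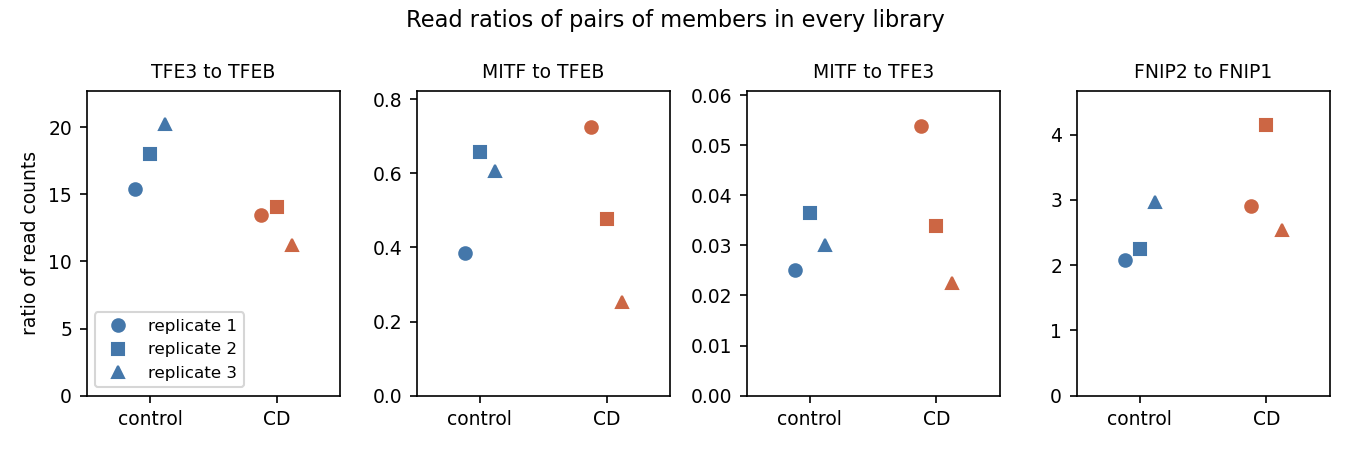
Ratio of read counts of 2 genes within each library (y axis, linear, starting at 0), for TFE3 to TFEB, MITF to TFEB, MITF to TFE3 and FNIP2 to FNIP1, in 3 control (blue) and 3 CD (orange) libraries. Symbols mark the replicate number. Only the ratio of TFE3 to TFEB shows no overlap between the groups, at 15.4 to 20.2 in control and 11.2 to 14.1 in CD.

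FNIP1 and FNIP2 varied more between CD libraries than between the groups. FNIP2 had 161, 140 and 230 reads (11.5, 10.1 and 12.7 CPM) in control replicates 1, 2 and 3 and 532, 350 and 120 reads (32.7, 21.5 and 8.64 CPM) in CD replicates 1, 2 and 3. CD replicates 1 and 2 were thus above, and CD replicate 3 below, all control libraries. The 95% Clopper-Pearson interval was 30.0 to 35.6 CPM for CD replicate 1 and 7.17 to 10.3 CPM for CD replicate 3, so the CD libraries differed by more than counting error. The log2FC of 0.87, the highest point estimate of the set, had a standard error of 0.38 and a 95% interval of 0.03 to 1.71, and the FDR was 0.0810 in edgeR. FNIP2 was called by DESeq2 (log2FC 0.84, FDR 0.0411) and by edgeR without CD replicate 3 (1.20, FDR 1.34e-08), but its log2FC was 0.41 without CD replicate 1 (FDR 0.30, edgeR).

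FNIP1 had 77, 62 and 77 reads (5.52, 4.48 and 4.24 CPM) in the control and 183, 84 and 47 reads (11.2, 5.15 and 3.39 CPM) in the CD libraries. A single CD library, replicate 1, was above the control range, replicate 2 was within it and replicate 3 was below it. The log2FC of 0.48 (standard error 0.38, 95% interval -0.36 to 1.33, FDR 0.32 in edgeR) turned to -0.13 without CD replicate 1 (FDR 0.68) and was 0.75 without CD replicate 3, where FNIP1 was called (FDR 0.0157, edgeR). The reads of FNIP2 per read of FNIP1 were 2.08, 2.25 and 2.97 in control and 2.90, 4.15 and 2.54 in CD, with overlapping groups (difference of the mean log2 ratio 0.38, exact permutation p = 0.3, 0.6 after adjustment over 4 ratios). FLCN itself, named here beside its partners, rose from 46.8 ± 5.74 CPM to 59.7 ± 1.42 CPM (mean ± SD, n = 3), with no overlap between groups, a log2FC of 0.35 (standard error 0.13) and an FDR of 0.0443 in edgeR. This call was lost in 7 of 14 settings, DESeq2 included (FDR 0.0767), and without control replicate 1, control replicate 2 or CD replicate 2 (log2FC values of 0.26, 0.34 and 0.30, with an FDR of 0.21, 0.13 and 0.15, edgeR).

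The CD libraries thus ordered MITF, FNIP1 and FNIP2 alike, with replicate 1 highest and replicate 3 lowest. The highest CD library exceeded the lowest 2.32-fold for MITF, 3.32-fold for FNIP1 and 3.78-fold for FNIP2, against a median of 1.39-fold over all tested genes, and 91.8%, 97.8% and 98.7% of the tested genes had a smaller ratio. The order of CD replicates 1 and 3 was shared by 27.4% of all tested genes. TFEB had the opposite order, with replicate 3 highest (1.25-fold above replicate 1), and for TFE3 and MCOLN1 the highest CD library was replicate 2, 1.17-fold and 1.13-fold above the lowest. Over the 6 libraries, Pearson's r of log2 CPM was 0.93 between MITF and FNIP2, 0.88 between FNIP1 and FNIP2, 0.81 between MITF and FNIP1 and 0.88 between TFEB and TFE3, while it was 0.25 between TFEB and MITF. These coefficients are descriptions over 6 points that share the 2 conditions. CD replicates 1, 2 and 3 held 31.1%, 31.8% and 41.4% of reads assigned to no gene, and the part of this difference in the spread of MITF, FNIP1 and FNIP2 was not tested.

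MCOLN1 had 158, 127 and 151 CPM in control replicates 1, 2 and 3 (2206, 1756 and 2746 reads) and 120, 136 and 122 CPM in CD replicates 1, 2 and 3 (1949, 2209 and 1694 reads). CD replicates 1 and 3 were below all control libraries, and CD replicate 2 was within their range. The log2FC was -0.21, with a standard error of 0.12, a 95% interval of -0.48 to 0.06 and an FDR of 0.18 in edgeR, and MCOLN1 was not called under any of 14 alternative settings (FDR between 0.0870 and 0.48). PPARGC1A was at the limit of detection, with 1, 1 and 0 reads in the control and 1, 0 and 2 reads in CD, too few to be tested. A difference in PPARGC1A was not detectable at this depth.

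**Figure D3:**
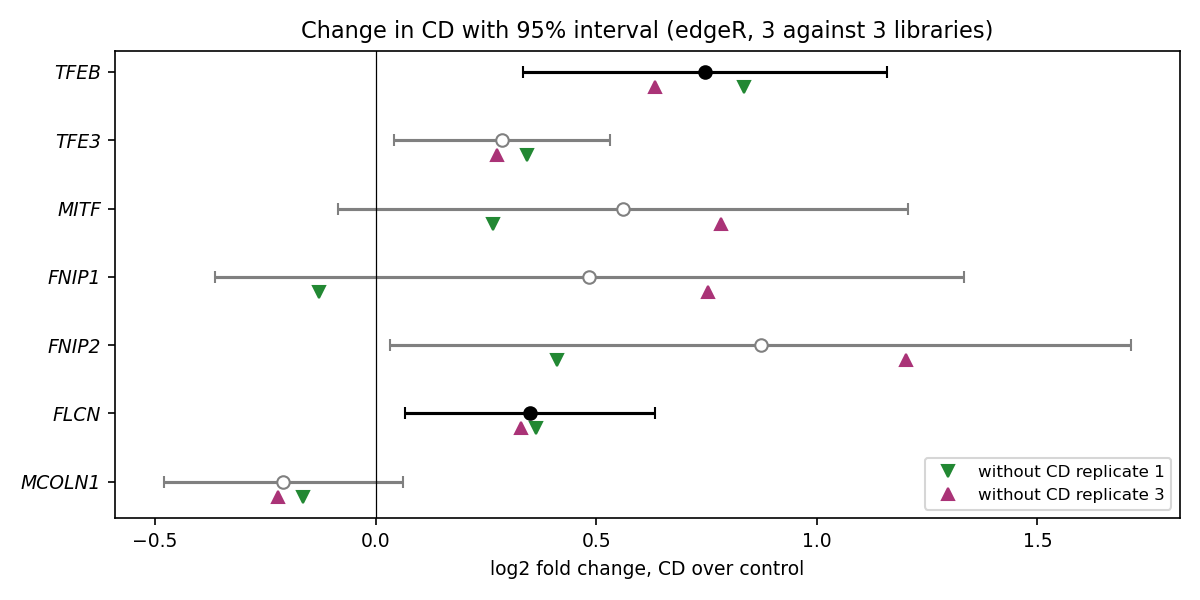
Log2FC of CD over control (x axis) for the 6 tested genes and FLCN, with the 95% interval of the quasi-likelihood fit (bars, 3 against 3 libraries). Filled black points have an FDR under 0.05 and open grey points do not, and triangles show the estimate without CD replicate 1 (green, pointing down) or CD replicate 3 (purple, pointing up). The triangles of TFEB, TFE3, FLCN and MCOLN1 stay close to the estimate, while those of MITF, FNIP1 and FNIP2 move apart, for FNIP1 from -0.13 to 0.75. Omissions of other libraries are not drawn, such as that of CD replicate 2, where the log2FC of TFE3 was 0.19.

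Of the 7 genes found, 6 were tested, of which 1 was called higher and 0 were called lower in edgeR. Over all 12148 genes tested, 24.8% were called higher and 22.9% lower. At an unadjusted p under 0.05, 3 of the 6 were higher and 0 lower in edgeR, against 28.6% and 26.1% of all tested genes. DESeq2 called 2 higher (TFEB and FNIP2, with 20.2% of all genes called higher by DESeq2) and limma-voom 1 (TFEB, with 24.2% of all genes). Neither called any lower, with 20.1% of all genes called lower by DESeq2 and 23.4% by limma-voom. For 2 of the 6 genes, TFEB and TFE3, all CD libraries were above all control libraries, and for 0 they were all below, as compared with 29.5% and 28.6% of all tested genes. Without CD replicate 1, 2 genes of the set were called higher (TFEB and TFE3, with 25.1% of all tested genes called higher), and without CD replicate 3 the number was 5 (TFEB, TFE3, MITF, FNIP1 and FNIP2, with 29.3% of all tested genes). The share of all tested genes called higher was 18.4%, 19.4% and 18% without control replicates 1, 2 and 3 and 20.3% without CD replicate 2, and the share called lower was 17.9%, 19.2% and 17.8% without these control replicates and 23.5%, 20.6% and 29.2% without CD replicates 1, 2 and 3. The counts for the 6 genes are read beside these shares, and nothing is taken as particular to the set.

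Genes listed as regulators of TFEB family localization or as partners of its proteins changed in both directions. Of 26 such genes on the list, 23 were found and tested, of which 12 were called higher and 4 lower in edgeR (24.8% and 22.9% over all tested genes), with a median log2FC of 0.40 against 0.06 over all tested genes. Adaptor proteins that hold phosphorylated TFEB in the cytoplasm were among the higher genes. Of these, YWHAH rose from 164, 175 and 158 CPM in control replicates 1, 2 and 3 to 763, 829 and 861 CPM in CD replicates 1, 2 and 3 (log2FC 2.30, standard error 0.12, FDR 4.71e-07, edgeR), and SFN from 7.27 ± 0.473 CPM to 19.1 ± 2.61 CPM (log2FC 1.39, FDR 1.30e-04). Each library of CD was above each control library for both genes. The calcineurin catalytic subunits PPP3CA, PPP3CB and PPP3CC had log2FC values of 0.74, 0.44 and 0.41 (FDR 0.0118, 0.0490 and 0.0138, edgeR), PPP2CB, a catalytic subunit of protein phosphatase 2A, one of 0.93 (FDR 2.53e-04), and ACSS2, an acetyl-CoA synthetase that works with TFEB in the nucleus, one of 1.18 (FDR 2.00e-05).

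On the lower side, CDK4, a cell-cycle kinase that phosphorylates TFEB, fell from 287 ± 2.74 CPM to 119 ± 14.0 CPM (mean ± SD, n = 3; log2FC -1.27, FDR 1.99e-05, edgeR). XPO1, the exportin that carries TFEB out of the nucleus, was at 114, 113 and 103 CPM in the control and 82.2, 54.7 and 63.7 CPM in the CD libraries (log2FC -0.71, FDR 0.00355). Not all kinases of the list were lower. MAPK3, which also phosphorylates TFEB, rose from 129, 113 and 130 CPM in the control to 193, 223 and 233 CPM in the CD libraries (log2FC 0.80, FDR 3.85e-04, edgeR), was called in all 14 alternative settings and was named after its values were seen. The kinases MTOR and CDK6 had log2FC values of -0.70 and -0.67 (FDR 0.0448 and 0.0374), and neither was called without control replicate 1, 2 or 3 or without CD replicate 2. The FDR of MTOR was then 0.0891, 0.0891, 0.13 and 0.0528 and that of CDK6 0.0914, 0.0698, 0.13 and 0.0966 (edgeR), so that 2 genes were called lower in each of these tests, in which the share of all tested genes called lower was 17.8% to 20.6% and thus also below 22.9%. MTOR was called in 7 of 14 settings. It was also lost with upper quartile scaling (FDR 0.0605), total counts (FDR 0.0872) and no filter on low counts (FDR 0.16), and its log2FC ran from -0.94 without CD replicate 1 to -0.45 without CD replicate 3 (edgeR). CDK6 was called in 9 of 14 settings and was also lost with total counts (FDR 0.0604). Without control replicate 1 or 3, 7 genes of the list were called higher instead of 12, while the share of all tested genes called higher was 18.4% and 18% instead of 24.8%. The calcineurin genes were chosen for description after their values were seen. PPP3CB was called in 3 of 14 alternative settings and kept its call without CD replicate 3 but not without any other library, with an FDR of 0.17, 0.0683 and 0.16 without control replicates 1, 2 and 3 and of 0.13 and 0.0626 without CD replicates 1 and 2 (edgeR). PPP3CA and PPP3CC were not called without control replicate 1 (FDR 0.0593 and 0.0909) or control replicate 3 (FDR 0.0574 and 0.0551).

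Among the 19 listed partners of the FLCN-FNIP complex, FLCN included, 14 were found and tested, of which 7 were called higher and 1 lower (24.8% and 22.9% over all tested genes), with a median log2FC of 0.32. The higher genes included each of the 4 Rag GTPase genes, RRAGA, RRAGB, RRAGC and RRAGD, with log2FC values of 0.29, 1.57, 0.72 and 0.54 (FDR 0.0474, 6.16e-04, 0.0106 and 0.0366, edgeR). RRAGD, itself known as a target of the TFEB family, was at 9.96, 10.3 and 7.93 CPM in the control and 12.7, 12.2 and 16.1 CPM in the CD libraries. RRAGA and RRAGD were added after their values were seen, to complete the Rag genes. RRAGB was called in all 14 alternative settings, RRAGA in 5 and RRAGD in 8. Neither was called without control replicate 1, 2 or 3 or without CD replicate 2 or 3, where the FDR was 0.13, 0.14, 0.14, 0.13 and 0.11 for RRAGA and 0.0870, 0.0679, 0.16, 0.0626 and 0.0715 for RRAGD (edgeR). With the replicate block the FDR was 0.14 for RRAGA and 0.0698 for RRAGD. LAMTOR3, a subunit of the Ragulator scaffold, rose by a log2FC of 0.86 (FDR 0.00494), whereas LAMTOR1, the subunit that anchors the scaffold in the lysosomal membrane, fell from 149 ± 1.52 CPM to 102 ± 5.93 CPM (log2FC -0.54, FDR 0.00182, edgeR). PRKAG2, a subunit of the kinase AMPK, had a log2FC of 0.63 (FDR 0.00775) and was not called without control replicate 1 (FDR 0.0539), and RRAGC was not called without control replicate 3 (FDR 0.0559). The number of higher genes fell to 3 without control replicate 1 and to 4 without control replicate 2, control replicate 3 or CD replicate 2. In these tests the share of all tested genes called higher also fell, to between 18% and 20.3%. Without CD replicate 3 the number of lower genes was 2, while the share of all tested genes called lower rose from 22.9% to 29.2%.

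Genes with CLEAR elements, by which the TFEB family acts on the lysosome, were called in both directions. Of 51 listed, 44 were found and 43 tested, of which 14 were called higher, 10 lower and 19 not called in edgeR, with a median log2FC of 0.07. Over all tested genes 24.8% were called higher and 22.9% lower, and the counts of the CLEAR list lie near these shares. CTSF, a cysteine protease of the lysosome, rose from 51.3 ± 5.34 CPM to 117 ± 16.9 CPM (mean ± SD, n = 3; log2FC 1.19, FDR 1.03e-04), and UVRAG, a subunit of a phosphatidylinositol kinase complex of autophagy, from 13.8 ± 1.31 CPM to 30.0 ± 4.04 CPM (log2FC 1.12, FDR 3.02e-04). The autophagy genes SQSTM1 and WIPI1 had the highest log2FC values of the list, at 2.32 and 1.71. Of the lysosomal hydrolases, NAGLU, LIPA and GLA, which degrade heparan sulfate, cholesteryl esters and globosides, had log2FC values of -1.07, -0.93 and -0.77 (FDR 1.73e-04, 2.08e-04 and 5.70e-04, edgeR). BCL2, an inhibitor of apoptosis and autophagy that does not act in lysosomes, fell by 2.21 on the log2 scale, from 7.98 ± 0.464 CPM to 1.71 ± 0.175 CPM. The melanosome and lysosome glycoprotein GPNMB, a target of MITF and TFE3, was at 35.0, 31.8 and 34.5 CPM in the control and 67.2, 71.5 and 42.1 CPM in the CD libraries (log2FC 0.84, FDR 0.00474, edgeR), with CD replicate 3 the lowest of its group. It was named after its values were seen. Without control replicate 3, 6 genes were called lower instead of 10, and 17.8% of all tested genes instead of 22.9%.

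The coactivator PPARGC1A was near 0, but its relatives were expressed and fell. PPARGC1B had 12.3, 10.6 and 14.8 CPM in the control and 6.58, 6.01 and 4.03 CPM in the CD libraries, with no overlap between groups and a log2FC of -1.18 (standard error 0.23, FDR 0.00188, edgeR). PPRC1, the third coactivator of the family, fell from 113 ± 6.62 CPM to 47.4 ± 9.54 CPM (log2FC -1.25, FDR 1.33e-04). Both calls held under all 14 alternative settings. Of the 23 listed coactivators, partners and targets, 22 were found and 20 tested, of which 4 were called higher and 6 lower, near the 24.8% and 22.9% of all tested genes (median log2FC of the list 0.06). NRF1, a transcription factor of mitochondrial biogenesis, and KAT2A, an acetyltransferase, were lower (-0.86 and -0.73), while the nuclear receptors PPARD and ESRRA were higher (0.59 and 0.48), as were MEF2C (1.60), a transcription factor, and PDK4 (1.54), a kinase that inhibits pyruvate dehydrogenase. The 6 genes had an FDR between 1.85e-04 and 0.00492 in edgeR. Among the other nuclear receptors of the list, PPARG was called lower (log2FC -0.60, FDR 0.0186, edgeR), with no overlap between groups, and PPARA was not called (0.47, FDR 0.12). Both were named after their values were seen. The call of PPARG was lost with the replicate block (FDR 0.0594) and without control replicate 2 (FDR 0.0696), control replicate 3 (FDR 0.0741) or CD replicate 2 (FDR 0.0569).

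Of the 12 listed lysosomal channels and proteins that make or sense their activating lipid, 11 were found and 9 tested, of which 2 were called higher and 1 lower, beside 24.8% and 22.9% of all tested genes (median log2FC of the list -0.20). MCOLN2 and MCOLN3, the paralogs of MCOLN1, were each at 2 reads or fewer in every library and are named for their relation to MCOLN1, after their values were seen. FIG4 and VAC14, which act in one complex with the lipid kinase PIKFYVE, went in opposite directions, with log2FC values of 0.65 and -0.43 (FDR 0.00994 and 0.0178, edgeR), and SYT7, a calcium sensor of lysosome exocytosis, had one of 0.78 (FDR 0.0197). These calls were lost without control replicate 3 (with an FDR of 0.0560, 0.0526 and 0.0698 in the order FIG4, VAC14, SYT7). VAC14 and SYT7 were not called without control replicate 1 either (FDR 0.0950 and 0.0783), nor SYT7 without control replicate 2 (FDR 0.0546) or CD replicate 2 (FDR 0.0908). The number of higher genes was therefore 1 without control replicate 1, control replicate 2 or CD replicate 2, and it was 0 without control replicate 3. The number of lower genes was 0 without control replicate 1 or 3 and 3 without CD replicate 3. The share of all tested genes called higher was 18.4%, 19.4% and 18% without control replicates 1, 2 and 3 and 20.3% without CD replicate 2. The share called lower was 17.9% and 17.8% without control replicates 1 and 3 and 29.2% without CD replicate 3.

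ZKSCAN3 could not be followed, but 15 of 18 listed zinc finger genes with a SCAN domain were found, of which 13 were tested and 2 called higher and 0 lower in edgeR (24.8% and 22.9% over all tested genes), with a median log2FC of 0.11. At an unadjusted p under 0.05 the numbers were also 2 and 0 (28.6% and 26.1% of all tested genes), as with DESeq2 and limma-voom. ZKSCAN1 rose from 12.8, 11.6 and 11.6 CPM in the control to 23.0, 20.6 and 17.6 CPM in the CD libraries (log2FC 0.77, standard error 0.16, FDR 0.00335, edgeR). ZSCAN12 had a log2FC of 0.45 (FDR 0.0326) and kept its call when CD replicate 3 was left out but not when any other library was, its FDR being 0.15, 0.0838 and 0.0651 without control replicates 1, 2 and 3 and 0.0626 and 0.11 without CD replicates 1 and 2. In these 5 tests the number of higher genes was 1, beside 18% to 25.1% of all tested genes. Because zinc finger genes resemble each other and the way reads were assigned to genes is not given, counts of these paralogs are uncertain.

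**Figure D4:**
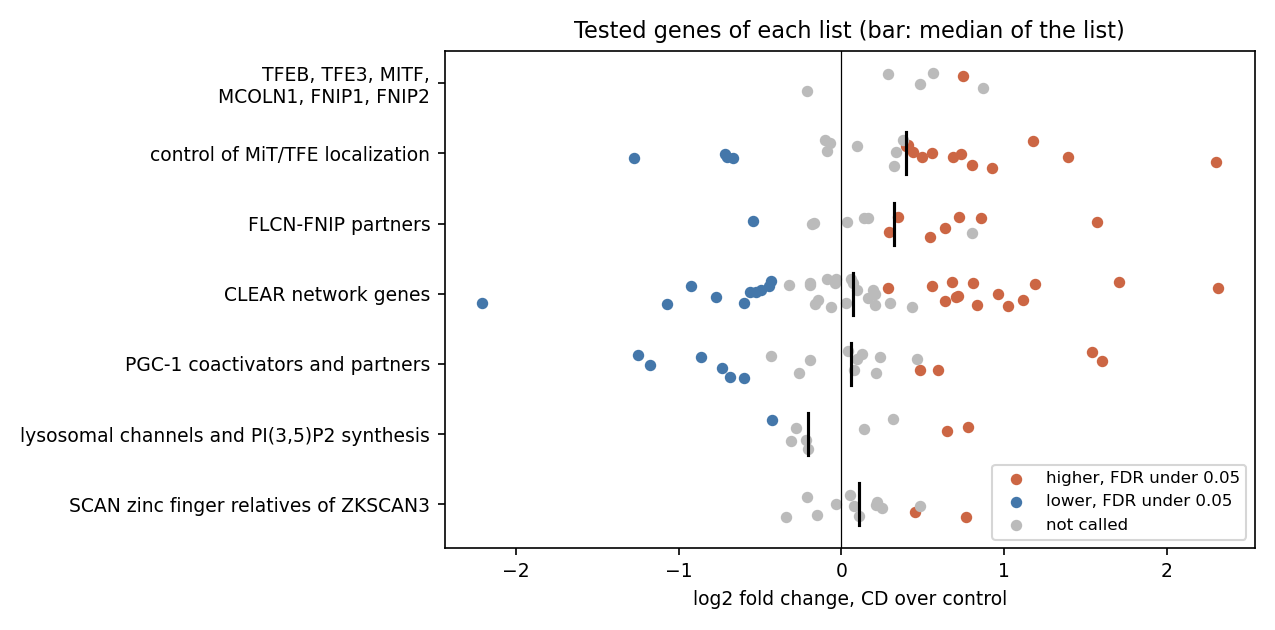
Log2FC of CD over control (x axis) for each tested gene of the set (top row) and of the 6 pathway lists (other rows). Orange points were higher and blue points lower at an FDR under 0.05 in edgeR, grey points were not called, and the black bar is the median of a list. Called genes lie on both sides of 0 in the CLEAR row (14 higher, 10 lower), whereas in the row of the localization list 12 lie on the right and 4 on the left.

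The genes whose log2 CPM followed each factor most closely over the 6 libraries were taken from 10088 other tested genes with a symbol. For TFEB these were IL34, ITGAE and ARMCX3 (Pearson's r 0.997, 0.995 and 0.993), for TFE3 MMP28, RARG and MC1R (0.995, 0.993 and 0.988), and for MITF G3BP2, FAM76A and MTMR12 (0.994, 0.991 and 0.990). With so many genes and 6 points that share the 2 conditions, coefficients of this size are a description of likeness alone.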

How the data were processed

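RNA from 3 control and 3 CD samples of Mv1Lu cells was sequenced. The authors deposited raw read counts per gene for the mink assembly NNQGG.v01 with Ensembl identifiers. The submitters' processing notes name fastp 0.20.1, STAR 2.7.2a, R 4.0.3 and DESeq2 1.30.1. The read counter and its strand setting are not given in the sources used here, so reads of overlapping and antisense genes cannot be told apart. The deposited normalized tables were not used, since their identifiers stand in another order than their values.

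Counts were filtered with filterByExpr (minimum count 10, minimum total 15), normalized by TMM and tested with the quasi-likelihood test of edgeR 4.0.16 in R 4.3.3, robust, with condition as the sole term. The Benjamini-Hochberg FDR was taken over all 12148 genes tested and called under 0.05. Ratios were taken as log2 of counts with 0.5 added. Libraries held 13473820 to 18633764 gene reads. The steps were tested on simulated data. Alternatives were DESeq2 1.42.0, limma-voom (limma 3.58.1), other scalings and filters, an FDR of 0.01, a replicate block and leaving out each library.

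The genes and lists were chosen with earlier results of these data known. Named genes were the 8 genes, TFEC and FLCN, up to 4 called genes per direction with the largest log2 fold change of each list, and the 3 genes most like TFEB, TFE3 and MITF. Cell type markers are named from lists of their own. Other genes named outside the rule are marked where they appear. The lists are regulators of TFEB family localization with partners of its proteins, partners of FLCN and FNIP, CLEAR genes, PGC-1 coactivators and partners, lysosomal channels with the enzymes of their lipid, and SCAN zinc finger genes. Promoter and protein sequences were not analysed here.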

Additional observations from a re-analysis of the deposited data

How the results depend on the processing

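TFEB was called in all 14 alternative settings. At an FDR of 0.01, 2006 of all genes were higher. Genes of the set called higher numbered 2 with DESeq2, 2 with upper quartile scaling and 2 with total counts, and 1 to 5 with each library left out, beside 20.2%, 26.1%, 24.7% and 18% to 29.3% of all tested genes. Total counts gave 2 lower regulators of localization and 2 lower genes among the lysosomal channels, beside 22.2% of all tested genes called lower. The replicate numbers did not pair the samples (correlations of deviations -0.024, -0.329 and -0.185), and no sample correlated best with its own number. With the replicate block, 4 partners of FLCN and FNIP and 1 SCAN gene were higher, and 2772 of all genes. With each library left out, the localization list gave 7 to 15 higher and 2 to 4 lower, the FLCN and FNIP list 3 to 7 higher and 1 to 2 lower, the CLEAR list 6 to 11 lower, the channel list 0 to 3 higher and 0 to 3 lower, and the SCAN list 1 to 3 higher, while all genes called ran from 2216 to 3616 higher and 2194 to 3606 lower. The log2 fold change of FNIP1 ran from -0.13 (without CD replicate 1) to 0.75 (without CD replicate 3), that of the MITF to TFEB ratio from -0.62 to 0.14 and that of the MITF to TFE3 ratio from -0.12 to 0.50. The cause was not tested. With 3 libraries per group the intervals of MITF, FNIP1 and FNIP2 are wide, and PPARGC1A and TFEC are below what this depth resolves.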
